A study of Rattus norvegicus with 4 samples.

Results

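The genes described here encode the proteins of the cytosolic ribosome. They were taken from a table of 17768 gene rows by name alone: protein coding rows named Rps or Rpl with a number and an optional suffix letter or digit, together with Rpsa and Rplp0, Rplp1 and Rplp2. This rule found 84 rows with 78 names on 20 chromosomes. Of these rows, 29 were core small subunit genes, 41 core large subunit genes, 3 genes of the ribosomal stalk and 11 variant paralogs. Variant paralogs are relatives of a core gene with a name of their own, such as Rpl22l1 and Rps27l. A total of 81 rows held at least 1 normalized read in 2 or more libraries and were tested. The other rows, the variants Rpl10l, Rpl3l and Rps4y2, had between 0 and 3 reads per library.

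RNA from NRK-52E, a rat kidney epithelial line labelled as proximal tubular, was sequenced in 4 libraries, 2 of them titled lv_nc and the others lv_Mettl3. Per the labels, a lentivirus carried a mouse Mettl3 cDNA, which encodes the catalytic subunit of the writer of N6-methyladenosine on mRNA, and the study overexpressed it by this vector, with puromycin selection of a stable line at 0.5 mg/ml and upkeep at 0.25 mg/ml in medium with 10% fetal serum. All 4 libraries carry the treatment label untreated, and the labels give the same protocol text for both titles, without saying what nc stands for or which vector those cells received. The labels describe stable lines and do not say whether the libraries of a group came from separate cultures or infections, so a p-value here reflects only how these libraries spread, which may be technical spread.

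A ribosome carries 1 copy of nearly every ribosomal protein beside its RNA, so cells make these proteins in matched amounts. The mRNAs are among the most abundant in dividing cells, and most start with a cytosine followed by a run of pyrimidines, the 5′ terminal oligopyrimidine (TOP) tract, through which mTORC1 and the RNA-binding protein LARP1 control their translation. Many of the genes have processed copies elsewhere in the genome, and short reads cannot always be assigned to the gene or its copy.

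The start of these mRNAs is shown because the tract is what this family shares in sequence. Each line holds 30 bases of the RefSeq promoter table (build GRCr8), read 5′ to 3′ on the gene's strand: 12 bases before the annotated start and 18 from it. Capitals mark a C followed by at least 4 C or T, beginning at or within 3 bases of the annotated start, and only the gene's own strand was searched. The first lines, Rplp0 to Rps18, are abundant members of the stalk and of both subunits that hold the tract at the annotated start. Rpl3, Rps2, Rpl4 and Rpsa, which held no such tract within 3 bases, had higher mean counts than these apart from Rplp0. They are not shown. Then come a parent and its variant (Rps27 and Rps27l) and a variant without a tract (Rpl22l1). Last are the members with the smallest unadjusted p-values in the comparison below (Rplp2 and Rps12).
Rplp0: cgcaccgcacttCTCTCgccaggcgtcctc
Rplp1: ggcgcatgtgatCCTTTCCTCagctgccgc
Rpl10: gcgtgggagcgtCTCTTTTCCTCTggcgcg
Rpl19: gaccagcaagctCTTTCCTTTCgctgctgc
Rps18: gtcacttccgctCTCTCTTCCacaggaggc
Rps27: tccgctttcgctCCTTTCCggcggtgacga
Rps27l: tattcatttgtcattatttgtggtgtccag
Rpl22l1: ccgtggatatccggttccgagttgcgcagc
Rplp2: ttcgccgccggacgccgccgaggtcgcacg
Rps12: cagaagcccagcagagcgcttaaataccgt

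In GRCr8 these windows lie at chr12:46718373-46718402 on the minus strand for Rplp0, chr8:71290855-71290884 (minus) for Rplp1, chrX:157205838-157205867 (plus) for Rpl10, chr10:83519052-83519081 (plus) for Rpl19 and chr20:4933733-4933762 (plus) for Rps18. Rps27 lies at chr2:177964589-177964618 (minus), Rps27l at chr8:76443646-76443675 (plus), Rpl22l1 at chr2:113683184-113683213 (plus), Rplp2 at chr1:205975909-205975938 (plus) and Rps12 at chr1:23500063-23500092 (plus). Each window spans the upstream flank and the first transcribed bases. Of the 78 names, 59 matched a RefSeq promoter and 58 had exactly 1 annotated start. Among the 52 core names with 1 start, 28 (53.8%) held the tract at or within 3 bases of the start, against 11.2% of all 33469 promoters, and 18 (34.6%) held it exactly at the start, against 2.63%. None of the 6 variants with a start did. For 1 of them, Rps9l1, the matched start lies on chromosome X while its analysed row is on chromosome 1, so it may not be the start of that row. A window without the tract says only that these letters are not there, since annotated starts can be off by several bases.

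Gene reads numbered 15068898 to 16622255 per library. Mettl3, the targeted gene, read 719 and 767 normalized counts in lv_nc and 757 and 700 in lv_Mettl3. Its rat row did not separate the groups, which are named here by their labels. Whether reads from the mouse cDNA were counted in that row was not tested. Of the 2 epithelial markers with values, Krt8, a keratin, stood at 28296 to 33065 normalized counts and Cdh1 at 0.923 to 8.79. Among 6 proximal tubule markers with values, Lrp2 and Aqp1 stood at 0 to 1.95 and 0 to 6.46. Cubn stood at 7.42 to 20.3, Anpep at 9.54 to 24.8 and Slc5a2 at 20.3 to 39.3. In 1 of the 6 both lv_Mettl3 libraries lay above both lv_nc libraries (Ggt1), in 1 below (Lrp2), and 4 overlapped. Beside this and the next marker list, 23.5% of all genes tested lay above in this way and 21.5% below. Ggt1, a tubule enzyme gene, read 2412 and 2530 in lv_nc and 3294 and 3757 in lv_Mettl3, without overlap. Of 7 fibroblast or smooth muscle markers with values, 4 had both lv_Mettl3 libraries below both lv_nc libraries (Col1a1, Col1a2, Col3a1 and Acta2), 1 had both above (Pdgfra, at 0.923 to 3.1) and 2 overlapped (Tagln and Des). The 7 summed to 13596 and 17814 in lv_nc and 5343 and 4842 in lv_Mettl3, most of it Col1a1, Col3a1 and Tagln, and the part of these markers in any result below was not tested.

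Ribosomal protein genes were expressed at high and graded levels. Of the 81 tested rows, 80 had a mean of at least 100 normalized counts and 67 a mean of at least 1000, and 54 were among the 1000 genes of highest mean. To compare levels between genes, each value was divided by the deposited gene length and given as a part of the library's sum of such values, in ppm. On this per-length scale Rplp0 (3690 ± 239 ppm, SD over the 4 libraries) and Rplp1 (3606 ± 186) stood highest and did not differ beyond their spread. Both encode the stalk that recruits elongation factors. They were followed by Rpl29 (3076 ± 193) and Rps2 (2680 ± 362), whose ranges over the libraries overlapped, and Rpl41 (2510 ± 196), the shortest ribosomal protein, which lay within the spread of Rps2. Rpsa, the laminin receptor precursor and a small subunit protein, stood at 2260 ± 96.9.

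At the low end, the Rpl21 row on chromosome 3 stood at 3.66 ± 1.05 ppm, Rps9l1 at 25.6 ± 7.59, Rpl8 at 38 ± 2.08, Rpl13a at 46.2 ± 1.95 and Rps18l1 at 51.7 ± 6.64. The Rpl21 row stood below the rest by more than its spread, Rps9l1 and Rpl8 differed by more than their SDs with Rps9l1 reaching 33.8 and Rpl8 starting at 36.2, and Rpl13a and Rps18l1 overlapped. Rows described as L8 but named differently held 77.5% of all L8 reads. Per-length levels rest on the deposited lengths, which run from 246 to 5151 bases. Together the members took 8.92% and 8.38% of the per-length total in lv_nc and 8.18% and 8.22% in lv_Mettl3.

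Most rows were steady across the 4 libraries. The highest and lowest library differed by no more than 1.3-fold in 66 of the 81 tested rows, and the median row varied 1.16-fold. This measure was not taken over all genes, so it does not set the members apart from other abundant genes. Rps23, a protein of the decoding centre, was the steadiest, at 5453 and 5208 normalized counts in lv_nc and 5207 and 5292 in lv_Mettl3 (1.05-fold). Of the 15 rows beyond 1.3-fold, the 6 of the large subunit were the 4 rows named Rpl21 and the 2 rows named Rpl7a. In the small subunit they were Rps6, Rps19, Rps28 and both rows named Rps27a, and the rest were Rplp2 and the variants Rpl7l1, Rps19l2 and Rps9l1.

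**Figure D1:**
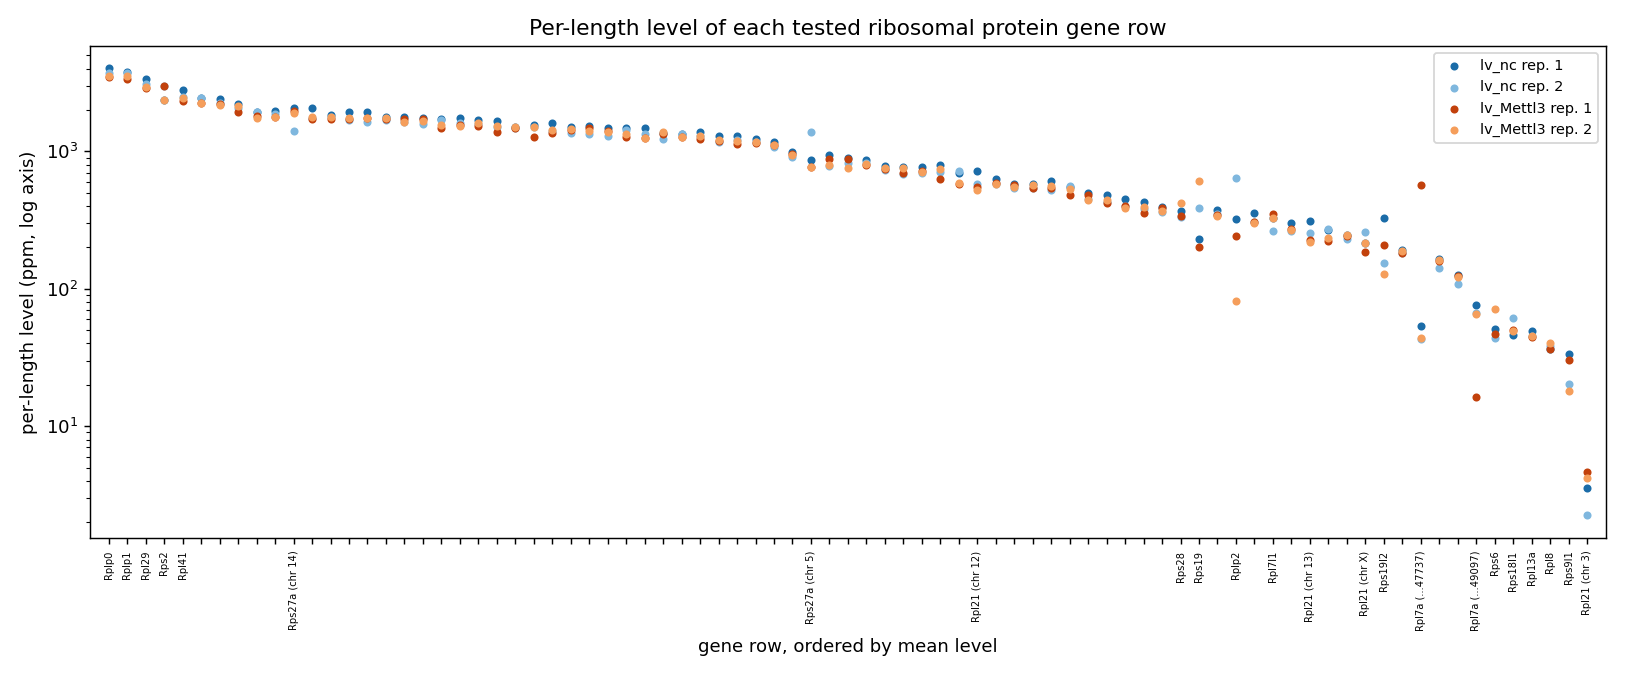
Per-length level (ppm, log axis) of the 81 tested ribosomal protein gene rows in each of the 4 libraries, ordered by mean level, with names at the 5 highest, the 5 lowest and the rows that varied more than 1.3-fold. Most genes hold 4 nearly coincident points from Rplp0 (mean 3690) downward, while Rplp2, Rps19 and the Rpl7a rows spread widely between libraries.

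The comparison of the lv_Mettl3 with the lv_nc libraries asks whether the messages of the ribosome differ in the libraries labelled for the methyltransferase. No ribosomal protein gene passed the test. With limma on log2(value + 1) and Benjamini-Hochberg adjustment over 16391 genes, 0 of 81 were called at 0.05, where 0.0183% of all genes were (3 genes), and the lowest adjusted p was 0.464. DESeq2 on recovered reads called 0 of 80 (2.52% of all genes called, lowest adjusted p among members 0.222) and the edgeR quasi-likelihood test 0 of 81 (0.0381% called, lowest adjusted p 0.384). At an unadjusted p under 0.05, limma gave 0 members higher and 2 lower (Rplp2 and Rps12), where 5.54% and 4.93% of all genes passed, DESeq2 gave 1 (7.44% of all genes) and edgeR 2 (11.8%). None of the members had an adjusted p of at most 0.05 in the authors' deposited table, where the lowest was 0.222.

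Fold changes of the ribosomal protein genes lay close to 0. Their median log2 fold change was -0.022, beside 0.005 over all genes tested and 0.021 over the genes whose mean was 1000 or more. Values were above 0 in 33 rows and below 0 in 48. Of the 81 rows, 67 (82.7%) lay within 0.2 of 0, against 45.1% of all genes. Of the 67 members with a mean of 1000 or more, 60 (89.6%) did, against 67.8% of all genes with such a mean. The SD of their log2 fold changes was 0.241 for the members above that mean and 0.264 for all genes above it. Leaving out the rows of repeated names, the single-block rows and the variants kept 63 rows, of which 93.7% lay within 0.2. This subset was not planned and drops rows with large fold changes, such as those named Rpl7a. All genes were not filtered in the same way. A median that small rested on single libraries: without lv_nc replicate 1 it was 0.064.

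**Figure D2:**
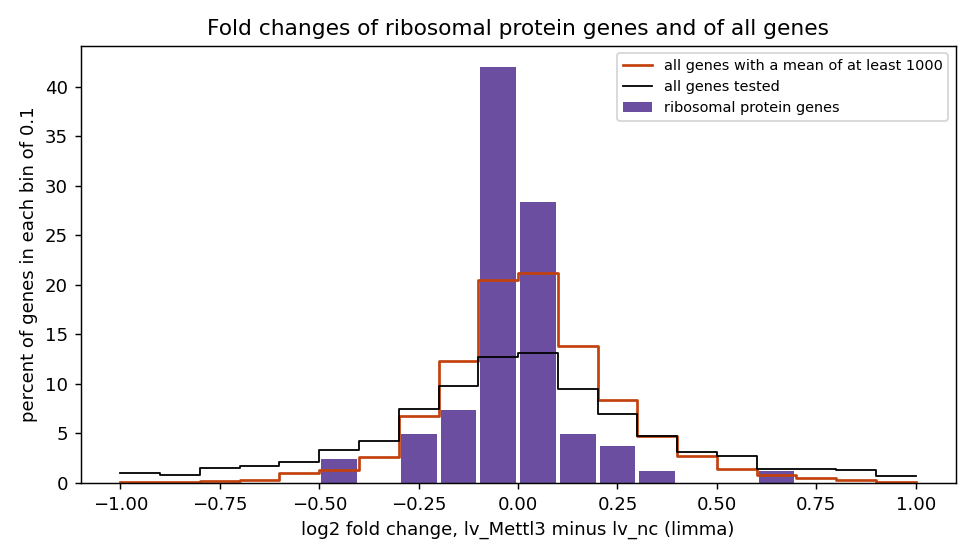
Percent of genes in each bin of 0.1 of the limma log2 fold change (lv_Mettl3 minus lv_nc), for the 81 ribosomal protein rows (bars), all genes tested (black line) and all genes with a mean of at least 1000 (orange line). The bars pile up next to 0, with 82.7% within 0.2. Beyond the axis lie 3.7% of the members (3 rows), 0.71% of genes with a mean of at least 1000 and 10.2% of all genes.

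The members' share of all gene reads was 3.45% in lv_nc replicate 1 and 3.21% in replicate 2. It was 3.18% and 3.19% in the lv_Mettl3 pair. The groups did not overlap, but lv_nc replicate 2 lay close to the lv_Mettl3 pair. The means were 3.33 ± 0.171% and 3.18 ± 0.00965% (SD, n = 2), a difference of -0.144 percentage points with a two-sided exact permutation p of 0.333, the smallest that 2 against 2 libraries allow. Without lv_nc replicate 1 the difference was -0.0236 points. Fewer cells making these messages and less of them per cell cannot be told apart in bulk RNA. Small subunit genes took 1.26% and 1.18% in lv_nc and 1.18% and 1.17% in lv_Mettl3, large subunit genes 1.81% and 1.67% against 1.66% and 1.68%, and stalk genes 0.323% and 0.306% against 0.281% and 0.287%.

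The ribosomal protein genes differed more between the lv_nc libraries than between the groups. Taking each gene's log2(value + 1) minus its mean over the 4 libraries, the median member stood at 0.09 in lv_nc replicate 1, -0.08 in lv_nc replicate 2, -0.03 in lv_Mettl3 replicate 1 and 0.01 in lv_Mettl3 replicate 2, while the median of all genes stayed between 0.00 and 0.01. Replicate 1 of lv_nc held the highest value of 62 of the 81 rows (76.5%), as it did for 23.7% of genes with a mean of 1000 or more and 19.9% of all genes. Replicate 2 held the lowest of 46 rows (56.8%), as it did for 44.9% of such abundant genes and 33.7% of all genes. Within lv_nc, 74 of 81 rows (91.4%) were lower in replicate 2, where 57.9% of such abundant genes and 48.6% of all genes were. The median difference of the members was -0.18. That difference was -0.19 with TMM scaling (74 rows) and -0.14 with library size scaling (70 rows). The lv_Mettl3 libraries differed by a median of 0.03. The distance between the lv_nc libraries thus exceeded the median difference between the groups.

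**Figure D3:**
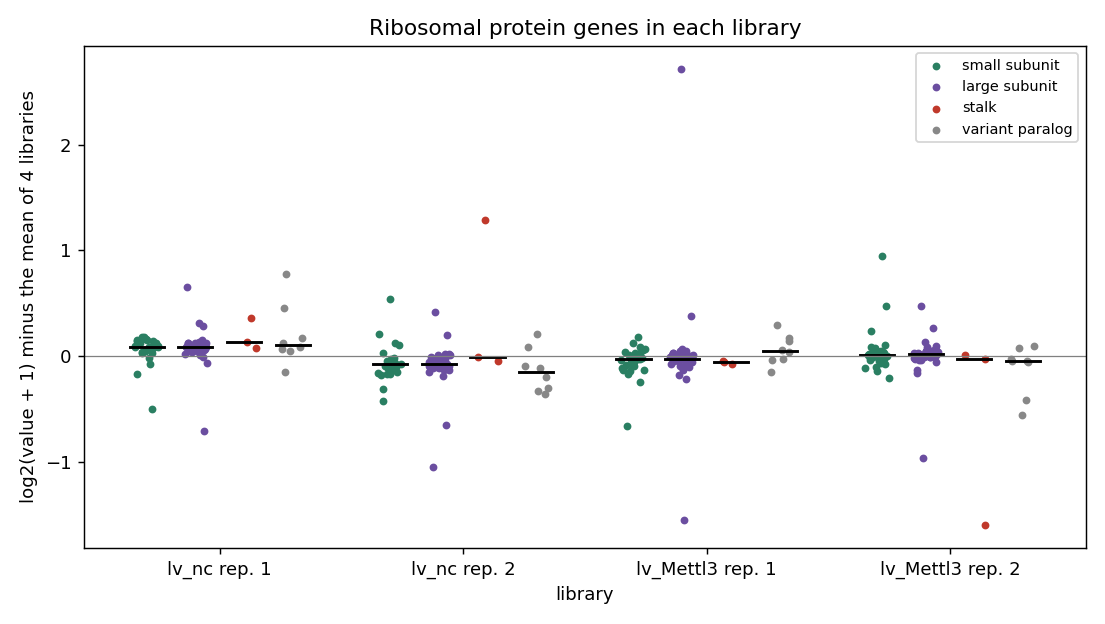
Deviation of each tested ribosomal protein row from its mean over the 4 libraries, on the log2(value + 1) scale, by library and role (colours), with black bars at the median of each role. The clouds sit above 0 in lv_nc replicate 1 (median 0.09) and below 0 in lv_nc replicate 2 (median -0.08), and single rows reach beyond 1 in lv_nc replicate 2 and in both lv_Mettl3 libraries.

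Groups separated for few members. Both lv_Mettl3 libraries lay above both lv_nc libraries in 2 rows (2.47%, where 23.5% of all genes did so): Rpl7l1 and the Rpl21 row on chromosome 3. They lay below in 12 rows (14.8%, where 21.5% of all genes did so), among them Rpl10, Rpl19, Rpl24, Rpl29, the Rpl21 rows on chromosomes 12 and 13, Rps12, the Rps27a row on chromosome 5, Rplp2 and Rps10l1. Both shares were below the background.

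Among the 29 small subunit rows, the median log2 fold change was -0.012 and the range -0.46 to 0.33, with 12 above 0 and 17 below. Rps12, whose protein sits on the head of the small subunit, read 3035 and 2985 normalized counts in lv_nc and 2545 and 2593 in lv_Mettl3. The groups did not overlap, and the libraries of each group lay close together, at 3010 ± 34.7 and 2569 ± 34.1 (SD, n = 2). Its limma log2 fold change was -0.23 (SE 0.08, adjusted p = 0.469), and it kept to between -0.24 and -0.22 with any library left out. Rows described as S12 under other names held 58.8% of the S12 reads, and with them added the sum read 7107 and 6291 in lv_nc and 6760 and 6930 in lv_Mettl3, where the groups overlapped and the log2 difference was 0.03.

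Rps6, the substrate of S6 kinase downstream of mTORC1, read 318 and 261 in lv_nc and 293 and 450 in lv_Mettl3. One lv_Mettl3 library stood above the rest and the other between the lv_nc values. Its limma log2 fold change was 0.33 (SE 0.25, adjusted p = 0.64), and 0.02 at the lowest with 1 library left out. Rps28 read 1001 and 868 in lv_nc and 918 and 1159 in lv_Mettl3, with overlapping groups. The log2 fold change was 0.15 (SE 0.16, limma adjusted p = 0.732), and -0.02 without lv_Mettl3 replicate 2. Rpsa read 19403 and 17664 in lv_nc and 18060 and 17979 in lv_Mettl3, a log2 fold change of -0.04 (SE 0.10), which was 0.03 without lv_nc replicate 1.

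Rps3, at the mRNA entry site and with a role in DNA repair, read 12660 and 11575 in lv_nc and 11505 and 11712 in lv_Mettl3 (log2 fold change -0.06, SE 0.09). Rps3a read 13318 and 11263 against 13007 and 12546 (0.06, SE 0.11). In both genes the groups overlapped.

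Rps19, a gene mutated in Diamond-Blackfan anaemia, was among the most variable members. It read 960 and 1562 in lv_nc and 859 and 2614 in lv_Mettl3, so both groups spread widely and overlapped. The log2 fold change was 0.29 (SE 0.56, limma adjusted p = 0.862), and leaving out lv_nc replicate 1 or lv_Mettl3 replicate 2 made it -0.06 or -0.51. Its variant Rps19l2 read 1241 and 564 in lv_nc and 798 and 491 in lv_Mettl3 (log2 fold change -0.42, SE 0.43, limma adjusted p = 0.725), and was 0.15 without lv_nc replicate 1. Replicate 2 of each group was thus high in Rps19 and low in Rps19l2. Rps19l2 and the rows described as S19 together summed to 2431 and 2394 in lv_nc and 1917 and 3462 in lv_Mettl3. Without Rps19l2 the sums were 1190 and 1830 in lv_nc and 1119 and 2971 in lv_Mettl3, a 2.66-fold range.

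The 41 large subunit rows had a median log2 fold change of -0.012 with 18 above 0 and 23 below, and 36 (87.8%) within 0.2. Rpl3, which lies by the peptidyl transferase centre, read 21436 and 18867 in lv_nc and 20295 and 20075 in lv_Mettl3, a log2 fold change of 0.01 (SE 0.11). Both lv_Mettl3 values fell between the lv_nc values. Rpl10, a late-joining protein needed for subunit joining, read 11725 and 11468 in lv_nc and 11145 and 10921 in lv_Mettl3. Its groups did not overlap, and the log2 fold change was -0.07 (SE 0.08, limma adjusted p = 0.761). Rpl19 read 13583 and 13213 against 12816 and 12746, which made the log2 fold change -0.07 (SE 0.09, limma adjusted p = 0.778).

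Rpl5 and Rpl11, which with 5S RNA bind MDM2 when they are not built into ribosomes, had log2 fold changes near 0. Rpl5 read 10963 and 9679 in lv_nc and 10281 and 10490 in lv_Mettl3 (log2 fold change 0.01, SE 0.10), and Rpl11 read 5840 and 5376 against 5652 and 5866 (0.04, SE 0.09). The groups overlapped in both. Rpl24, which bridges to the small subunit, read 5954 and 5597 in lv_nc and 5205 and 5516 in lv_Mettl3 (-0.11, SE 0.09, limma adjusted p = 0.659), and Rpl29 read 16730 and 15066 against 14773 and 15055 (-0.09, SE 0.10, limma adjusted p = 0.74). The groups of Rpl24 and of Rpl29 did not overlap, but in each the nearest libraries of the groups lay closer to each other than to their own partners.

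Rpl21 is the name of 4 rows, 3 of which are single-block rows, with a length equal to their genomic span. The row on chromosome 12 read 2762 and 2146 in lv_nc and 2143 and 2064 in lv_Mettl3, and the row on chromosome 13 read 1191 and 943 against 879 and 861. In both rows the lv_Mettl3 values were the lower, with log2 fold changes at -0.21 (SE 0.14) and -0.28 (SE 0.14, limma adjusted p = 0.519). The row on chromosome X read 945 and 1095 against 819 and 966, with overlap, and the row on chromosome 3 read 13.7 and 8.31 against 18 and 16.5 (log2 fold change 0.64, SE 0.44, limma adjusted p = 0.606). The sum of the 4 rows was 4911 and 4193 in lv_nc and 3858 and 3907 in lv_Mettl3.

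The stalk is built from Rplp0 and dimers of Rplp1 and Rplp2. Rplp0 read 35018 and 31103 in lv_nc and 30811 and 31333 in lv_Mettl3 (log2 fold change -0.09, SE 0.11), and Rplp1 15017 and 14084 against 13448 and 14316 (-0.07, SE 0.09). In both genes the groups overlapped. Rplp2 read 897 and 1703 in lv_nc and 674 and 229 in lv_Mettl3. Its groups did not overlap, but each spread at least as far as the gap between them. The log2 fold change of -1.65 (SE 0.58) was the lowest of all members, with a limma adjusted p of 0.464 and an unadjusted p of 0.0349. DESeq2 gave an adjusted p of 0.55 with all libraries and called it only without lv_Mettl3 replicate 1 (log2 fold change -2.51, adjusted p = 3.45e-07). In limma the log2 fold change ranged from -2.42 to -0.87 with 1 library left out.

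Rplp2 shares its described protein with LOC498555, which read 1652 and 1476 in lv_nc and 1645 and 1400 in lv_Mettl3. That row varied 1.18-fold between its highest and lowest library, while Rplp2 varied 7.42-fold. Rows described as P2 but named otherwise held 65% of the P2 reads. All P2 rows summed to 2622 and 3254 in lv_nc and 2430 and 1706 in lv_Mettl3, a 1.91-fold range.

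Several members varied opposite to a row of the same name or described protein. Rps27a encodes a fusion of ubiquitin with S27a. Its row on chromosome 14 read 7710 and 5069 in lv_nc and 7408 and 7310 in lv_Mettl3, and its single-block row on chromosome 5 read 3769 and 5765 against 3347 and 3436. Replicate 2 of lv_nc stood apart in both rows, low in the first and high in the second, and the chromosome 5 row held 32.8%, 53.2%, 31.1% and 32% of the pair. The sum read 11480 and 10834 in lv_nc and 10755 and 10746 in lv_Mettl3, a 1.07-fold range, where the rows alone varied 1.52-fold and 1.72-fold. The limma log2 fold changes were 0.24 (SE 0.21, adjusted p = 0.679) for chromosome 14 and -0.46 (SE 0.21, adjusted p = 0.502) for chromosome 5. DESeq2 called both only without lv_nc replicate 1, at 0.53 (adjusted p = 6.74e-06) and -0.77 (adjusted p = 9.33e-10), when the lv_nc library that stood apart was the only one of its group. Without lv_nc replicate 2 they were -0.07 and -0.15 by limma.

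Rps2, which lies at the mRNA entry tunnel, showed the same pattern with LOC108350502, a row described as an S2 pseudogene. Rps2 read 16644 and 20372 in lv_nc and 21145 and 16923 in lv_Mettl3, and LOC108350502 read 4591 and 2132 against 2062 and 4702. High and low libraries alternated across the groups and were opposite in the 2 rows, the copy holding 21.3%, 9.34%, 8.8% and 21.5% of the S2 reads. All S2 rows summed to 21527, 22832, 23424 and 21888, a 1.09-fold range, beside 1.27-fold for Rps2 and 2.28-fold for the copy. How the authors' counting treats reads that fit more than 1 row is not given in the sources, and sequence identity between the rows was not tested, so single rows of these proteins are given as uncertain.

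The rows named Rpl7a did not cancel. ENSRNOG00000047737 read 338 and 266 in lv_nc and 3642 and 283 in lv_Mettl3, and ENSRNOG00000049097 read 483 and 409 against 104 and 424. Only lv_Mettl3 replicate 1 stood apart in either row, and their sum was 821, 675, 3746 and 707. LOC108349606, described as L7a, read 1091 and 1074 in lv_nc and 1093 and 997 in lv_Mettl3. With it the sum was 1912, 1748, 4839 and 1704, a 2.84-fold range. For the rows named Rpl7a, the limma log2 fold changes were 1.76 (SE 1.17, adjusted p = 0.594) and -1.08 (SE 0.65, adjusted p = 0.57). Without lv_Mettl3 replicate 1 they were -0.08 and -0.07, and without lv_Mettl3 replicate 2 DESeq2 called both (3.59, adjusted p = 1.21e-27, and -2.10, adjusted p = 0.000289). The difference in each row was thus that of 1 library. Rps4x, by contrast, was steady in both rows: 9909 and 7974 against 9309 and 8455 on chromosome X, and 1907 and 1721 against 1905 and 1930 on chromosome 4.

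**Figure D4:**
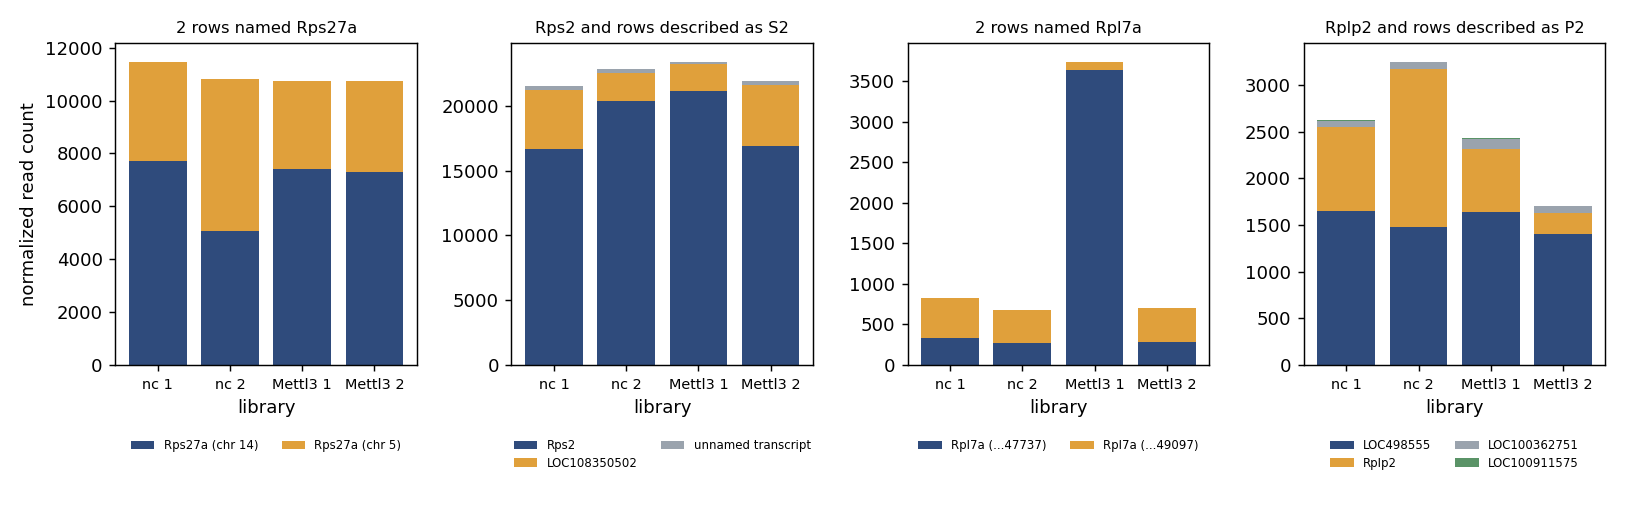
Normalized read counts stacked by row in each library for Rps27a, Rps2, Rpl7a and Rplp2 with the rows of the same name or described protein. For Rpl7a only the 2 rows of that name are shown, without LOC108349606, described as L7a. The stacks of Rps27a (10746 to 11480) and Rps2 (21527 to 23424) are nearly level while their parts trade places, whereas the Rpl7a stack reaches 3746 in lv_Mettl3 replicate 1 alone and the Rplp2 stack runs from 1706 to 3254.

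Variant paralogs took 0.0629% and 0.0512% of gene reads in lv_nc and 0.0569% and 0.0522% in lv_Mettl3, and of the 8 tested, 3 had a log2 fold change above 0 and 5 below. Rpl7l1, a relative of Rpl7 that acts in large subunit assembly, read 1918 and 1497 in lv_nc and 2088 and 1956 in lv_Mettl3. The groups did not overlap, and the log2 fold change was 0.25 (SE 0.14, limma adjusted p = 0.553). DESeq2 called it only without lv_nc replicate 1 (0.43, adjusted p = 0.0312). Its parent Rpl7 read 12335 and 10511 against 11262 and 11149, a log2 fold change of -0.02. Rps10l1, a single-block row, read 1068 and 1044 in lv_nc and 885 and 945 in lv_Mettl3, without overlap (-0.21, SE 0.10, limma adjusted p = 0.511), while its parent Rps10 read 5959 and 5040 against 5079 and 5444, with overlap.

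The groups overlapped in the other tested variants, and parents are given where a row of that name was analysed. Rpl39l, a form of the exit tunnel protein Rpl39 known from the germline, read 652 and 541 in lv_nc and 636 and 662 in lv_Mettl3 (log2 fold change 0.13, SE 0.14), and Rpl39 read 2154 and 1774 against 2116 and 2084 (0.10, SE 0.12). On the per-length scale Rpl39l stood at 157 ± 10.8 ppm and Rpl39 at 120 ± 8.17, an order that rests on the deposited lengths of 499 and 2126 bases and is the reverse of that of the read counts. Rpl22l1 read 2211 and 1927 against 2164 and 2015 (0.02, SE 0.11). Rps27l read 1991 and 1661 in lv_nc and 1722 and 1715 in lv_Mettl3 (-0.08, SE 0.12), and its parent Rps27 read 2436 and 2153 against 2414 and 2107 (-0.02, SE 0.12). Rps18l1 read 199 and 256 against 217 and 217, with its parent Rps18 at 8864 and 7711 against 8005 and 7812, and Rps9l1 read 633 and 366 against 568 and 345.

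Members with a tract at their annotated start had nearly the same median as those without in the comparison. The median log2 fold change was -0.022 over 27 rows with the tract near the start and -0.015 over 26 core and variant rows without it, counting tested names with 1 row and 1 start. The 26 include Rps9l1, whose matched start lies on another chromosome than its row. Among the lines printed above, Rpl10 and Rpl19 (with a tract) and Rplp2 and Rps12 (without one in the window) read lower in both lv_Mettl3 libraries. Rplp2 and Rps12 were printed for their small p-values, so their separation follows from that choice. The groups overlapped in Rplp0, Rplp1, Rps18, Rps27, Rps27l and Rpl22l1. Over all members 14.8% read lower in this way, and over all genes 21.5%.

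Ribosomal components named outside the rule gave log2 fold changes of similar size. Rack1, a scaffold on the small subunit, read 17640 and 16199 in lv_nc and 15951 and 16298 in lv_Mettl3. Fau, which encodes S30 fused to a ubiquitin-like protein, read 4325 and 2601 against 4799 and 1975, and was low in replicate 2 of both groups. The log2 fold changes were -0.07 (SE 0.09) for Rack1 and -0.12 (SE 0.47) for Fau.

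Of 174 tested genes in 8 lists on translation and ribosome assembly, the components just named included, 0 were called by limma, 0 by DESeq2 and 0 by edgeR, where 0.0183%, 2.52% and 0.0381% of all genes were. At an unadjusted limma p under 0.05, 5 (2.87%) were higher and 3 (1.72%) lower, below the 5.54% and 4.93% over all genes. Translation elongation (9 genes) had a median log2 fold change of 0.04: Eef1a1, which delivers aminoacyl-tRNA, read 102225 and 81867 in lv_nc and 100183 and 96710 in lv_Mettl3, and Eef2, the translocase, 49581 and 44049 against 46646 and 48084. Translation initiation (33 genes) had a median of 0.12, with Pabpc1, the poly(A)-binding protein, at 30842 and 23341 against 28882 and 28415 and Eif4g2 at 19310 and 15226 against 19413 and 17630. In all 4 genes the groups overlapped, and lv_nc replicate 2 held the lowest value. The median sign turned on that library: without it the medians were -0.040 for elongation and -0.028 for initiation, and without lv_nc replicate 1 they were 0.238 and 0.296.

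In the list on TOP mRNA control and mTORC1 (20 genes, median 0.03, and -0.045 without lv_nc replicate 2), Larp1 read 2824 and 2094 in lv_nc and 2926 and 3080 in lv_Mettl3 (log2 fold change 0.30, SE 0.16, limma adjusted p = 0.538). Mtor read 1878 and 2178 against 1865 and 1890 (-0.11, SE 0.11, limma adjusted p = 0.719). Larp1 separated the groups and Mtor did not. The list on free ribosomal protein sensing and ribosome stress (14 genes) had a median of 0.07, which was -0.011 without lv_nc replicate 2 and 0.145 without lv_nc replicate 1, with Rnf10 at 5215 and 5529 against 5106 and 5661.

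Genes that assemble ribosomes had higher medians than the ribosomal proteins, and 1 lv_nc library stood apart in them. The list of nucleolar processing factors (64 genes) had a median log2 fold change of 0.40 with 61 above 0, and 39 of 64 (60.9%) had both lv_Mettl3 libraries above both lv_nc libraries, where 23.5% of all genes did. Ncl, the nucleolar protein nucleolin, read 13619 and 7451 in lv_nc and 14539 and 13167 in lv_Mettl3 (0.46, SE 0.29, limma adjusted p = 0.582). Npm1, nucleophosmin, read 14012 and 6923 against 14165 and 12437 (0.43, SE 0.34, limma adjusted p = 0.644). In both genes lv_nc replicate 1 lay between the lv_Mettl3 values and replicate 2 far below.

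Across the list, all 64 genes were lower in lv_nc replicate 2 than in replicate 1, by a median of -0.65 (-0.67 with TMM and -0.62 with library size scaling). So were 57.9% of genes with a mean of 1000 or more and 48.6% of all genes. In the list, 61 genes (95.3%) had their lowest value in lv_nc replicate 2, as 44.9% of such abundant genes and 33.7% of all genes did. The median log2 fold change was 0.083 without lv_nc replicate 2 and 0.769 without lv_nc replicate 1. The number with both lv_Mettl3 values above lv_nc was 39 without lv_nc replicate 2 and 61 without lv_nc replicate 1, where 37.3% and 41.1% of all genes did so. RNA polymerase I and its factors (15 genes) had a median of 0.24, which was -0.065 without lv_nc replicate 2 and 0.392 without lv_nc replicate 1, with Ubtf at 4043 and 3409 against 3982 and 4029 and Polr1a at 1653 and 1083 against 1901 and 1823. Chaperones and importins of ribosomal proteins (16 genes) had a median of 0.19, which was -0.003 without lv_nc replicate 2 and 0.391 without lv_nc replicate 1, with Kpnb1 at 23096 and 16040 against 23310 and 22654 and Nap1l1 at 11504 and 10100 against 12010 and 11001.

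**Figure D5:**
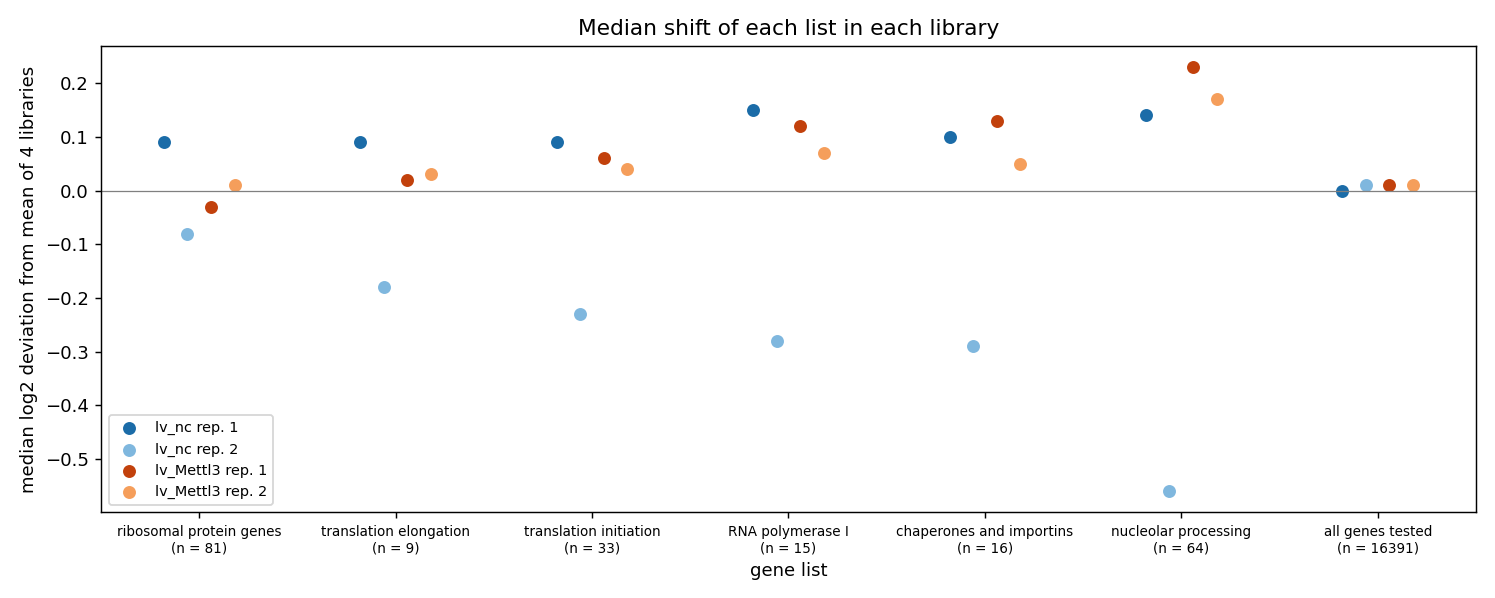
Median deviation of each gene list from its mean over the 4 libraries, on the log2(value + 1) scale, 1 point per library. Replicate 2 of lv_nc is the lowest point in every list shown other than all genes, from -0.08 for the ribosomal protein genes to -0.56 for the nucleolar processing factors, while the 4 medians over all genes lie between 0.00 and 0.01.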

How the data were processed

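The deposited library columns hold a signal: gene read counts that the authors divided by 1 size factor per library (1.02 and 1.08 for lv_nc, 0.943 and 0.968 for lv_Mettl3). Within 0.001 reads, 100% of values were whole multiples of the value of 1 read, so whole reads were recovered. Log2 fold changes and p-values in the authors' deposited table are their own. Per the submitters' processing notes, CASAVA 1.4 and HISAT2 were used. The sources used here do not name the counter, strand setting or genome build, so no position from that table is printed beyond its chromosome. Where strand is not used in counting, reads of a gene and an antisense partner cannot be told apart.

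Because the file holds normalized values, the test was limma 3.58.1 (trend) on log2(value + 1), two-sided, over genes at 1 or more in 2 or more libraries, with all 4 libraries in 1 fit and Benjamini-Hochberg adjustment at 0.05 over 16391 genes. Fold changes are on that scale and come out too small for low genes. DESeq2 1.42.0 and the edgeR 4.0.16 quasi-likelihood test on recovered reads were alternatives, beside other pseudocounts, filters, scalings and a replicate block. R was 4.3.3. Scripts were tested on simulated data. Among members with a mean of at least 1000, rows held 274 to 35843 reads, and counting error was at most 6.04% of a value; it covers counting error only.

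Members were chosen by name, and members and lists were chosen with earlier results of these data known. Genes named with values were any member called, the 6 largest log2 fold changes in each direction with a mean of at least 100, the 5 highest and 5 lowest per length, variants and their parents, the stalk genes, Rpsa, Rps27a, and Fau, Rack1, Larp1, Mtor and the 2 most abundant genes of each other list. Other members were named after their values were seen. A few genes are not reported here. Of 80 core names, 67 are members, 3 have other names and 10 are not analysed here by name. Of 191 list symbols 175 were matched, with 0 of 8 snoRNA host genes among them.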

Additional observations from a re-analysis of the deposited data

How the results depend on the processing

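The count of 0 ribosomal protein genes called was the same with limma under pseudocounts of 0.1 and 0.5, either filter, TMM and library size scaling, voom, robust fitting and any 1 library left out, and with DESeq2 and edgeR on all libraries. DESeq2 with 1 library left out, an alternative chosen after seeing the data, called 3 members without lv_nc replicate 1 (12.7% of all genes called), 1 without lv_Mettl3 replicate 1 (0.415%), 2 without lv_Mettl3 replicate 2 (0.452%) and 0 without lv_nc replicate 2 (1.61%). Over the 8 lists of other translation and ribosome assembly genes it called 82 genes, all higher, without lv_nc replicate 1 and 0 without each of the others. A group left with 1 library was assumed to vary like the other.

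With 1 library left out, the median log2 fold change of the members ranged from -0.093 to 0.064, that of the nucleolar processing factors from 0.083 to 0.769 and the difference in share from -0.265 to -0.0236 percentage points. Log2 fold changes turned sign without lv_nc replicate 1 for Rps19l2 (range with 1 library left out -0.99 to 0.15), Rpsa (-0.11 to 0.03) and Rps19 (-0.51 to 1.09, and -0.06 without that library), without lv_nc replicate 2 for Rps27a on chromosome 14 (-0.07 to 0.54), without lv_Mettl3 replicate 1 for Rpl7a ENSRNOG00000047737 (-0.08 to 3.60), and without lv_Mettl3 replicate 2 for Rps28 (-0.02 to 0.31) and Rps19. These limma values were not past the threshold with or without the library, and the cause was not tested beyond the libraries left out.

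The replicate numbers did not pair the libraries: deviations of same-numbered libraries correlated at 0.0753 over 16391 genes. With a replicate block, limma and edgeR each called 0 members and 0 genes of the lists, and the median of the members was -0.022. With 2 libraries per group, an exact test of a single value cannot reach a p below 0.333.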

Other observations

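Rows described as a cytosolic ribosomal protein but named outside the rule numbered 93, of which 67 were protein coding, 11 pseudogenes and 15 unnamed transcripts. They took 0.231% to 0.267% of gene reads per library, and 12 had a mean of at least 1000. Of these rows 89 were tested, 0 were called by limma or DESeq2, and their median log2 fold change was 0.037. For 35 proteins with a member row there were 71 such copies, and 22 rows stood for 9 proteins without one.

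Among the latter, rows described as S26 summed to 6209 and 5718 normalized counts in lv_nc and 5317 and 5683 in lv_Mettl3, and LOC100911847, described as S14, read 5998 and 5441 against 4609 and 5641. Rows described as L22 summed to 2075 and 1858 against 1993 and 1906, and those described as L38 to 1849 and 1489 against 1533 and 1891. The S26 sums did not overlap between the titles, with 5718 and 5683 the nearest, and the others did.

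In the list on TOP mRNA control, Myc, a transcription factor of ribosome genes, read 801 and 301 in lv_nc and 1182 and 1146 in lv_Mettl3 (limma log2 fold change 1.24, adjusted p = 0.471), and Tsc1, an inhibitor of mTORC1 signalling, read 466 and 505 against 339 and 345 (limma -0.50, adjusted p = 0.403). Both were named after their values were seen and did not pass the adjusted test. Myc, like the nucleolar genes, was lowest in lv_nc replicate 2.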
